A study of Mus musculus with 9 samples.

Results

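The SR splicing factors and the heterogeneous nuclear ribonucleoproteins (hnRNPs) were followed in ST2 cells that had engulfed dying neutrophils. The genes were taken by symbol from the deposited table of read counts: every symbol beginning with Srsf and a number or with Hnrnp, without the 2 symbols marked as pseudogenes (-ps) and without genes under 10 counts in all 9 libraries together. Of 33 matching symbols in a table of 55453 lines, 30 genes remained, 10 SR proteins and 20 hnRNPs. Srsf12 was left out because it had 0 counts in every library. All 30 passed the filter on low counts.

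ST2 is a wild-type mouse bone marrow stromal cell line, founded from a long-term marrow culture of BC8 mice. Unfed ST2 cells collected at 24 h (unfed), cells fed aged human neutrophils (PMN) for 3 h (fed 3 h) and cells fed for 24 h (fed 24 h) gave 3 libraries each. The neutrophils were stored frozen for 18 h or longer, then labelled with 20 µM of the eF670 dye, and were given at 10 per ST2 cell. Fed cells were sorted as PMN positive, that is, for a dye signal of at least a whole neutrophil, so feeding and the selection of the cells that took up most cannot be told apart. All libraries come from a single cell line, the labels do not state that the replicates were separate cultures, and no unfed library was taken at 3 h. In the comparison of fed 3 h with unfed cells, feeding and time in culture therefore cannot be told apart. Between fed 24 h and fed 3 h cells, time since feeding and time in culture cannot be told apart either. P-values measure only the spread between these libraries.

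SR proteins carry a domain rich in arginine and serine beside their RNA recognition motifs. They bind exonic enhancers in pre-mRNA, recruit the spliceosome and usually favour inclusion of the exon. The hnRNPs coat nascent transcripts and often act against SR proteins by silencing exons, and many also serve in mRNA export, stability and translation. Many members of both families are known to limit their own level by splicing in a premature stop codon, which sends the transcript to nonsense-mediated decay.

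Total counts ran from 44442664 to 55971275 per library, and the counts of the 30 genes in 1 library from 626 (Hnrnph3) to 40649 (Hnrnpk). Of 12 stromal marker genes 11 were tested. The list summed to 29500 to 31800 CPM (counts scaled to a common library size) in the unfed group. After 3 h it summed to 26000 to 26600 and after 24 h to 32500 to 34300, most of it Col1a1 and Col1a2. Mean levels in unfed, fed 3 h and fed 24 h libraries were 5710, 2270 and 7970 CPM for Cxcl12 and 412, 167 and 521 for Kitl. Those of Alpl were 11.1, 1.98 and 14 CPM. Eng (2.41 to 2.62 CPM) and Nt5e (1.04 to 1.49) were low in all groups. Thy1 was at 0 in unfed and fed 24 h libraries and had 1 count in fed 3 h libraries. Of 16 neutrophil markers 2 were tested (Camp and Mmp9), and the list summed to 2.96 to 3.90 CPM in the unfed group, 1.07 to 1.72 after 3 h and 4.28 to 5.30 after 24 h, with S100a9 and Fpr1 at 0 counts throughout. The 10 macrophage and leukocyte markers summed to 23.3 to 25.4, 28 to 29.1 and 24.9 to 28.3 CPM, most of it Cd14, and Adgre1 and Tyrobp were at 0. The 6 endothelial markers summed to 0.144 to 0.453, 0.320 to 0.587 and 0.375 to 0.658 CPM, with Kdr at 0. The table holds no rows of human genes, so the part that neutrophil RNA similar in sequence to the mouse genes may have in a count was not tested. The share of reads from genes linked to ribosomal RNA was 0.0904 to 0.115% in the unfed group, 0.0927 to 0.249% after 3 h and 0.201 to 0.350% after 24 h, and that from mitochondrial genes 1.48 to 1.61%, 1.12 to 1.58% and 1.78 to 2.22%. Their part in the results was not tested, but calls were also made without these genes.

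RefSeq promoter sequences (GRCm38.p6) were available for 28 of the 30 genes, all but Hnrnpll and Hnrnpul2. The 250 bases before the transcription start are shown for the gene with the largest rise (Srsf5), for the gene called higher at 3 h and lower at 24 h (Srsf2), and for the gene with the highest level per length (Hnrnpab). They lie at chr12:80945249-80945498 (plus strand), chr11:116853095-116853344 (minus strand) and chr11:51606882-51607131 (minus strand). Each is written 5′ to 3′ along its gene, with capitals marking matches on either strand to CCGGAA (an ETS factor motif), CCAAT (the NF-Y box) and TATAAA (the TATA box), none of which contains another.
Srsf5: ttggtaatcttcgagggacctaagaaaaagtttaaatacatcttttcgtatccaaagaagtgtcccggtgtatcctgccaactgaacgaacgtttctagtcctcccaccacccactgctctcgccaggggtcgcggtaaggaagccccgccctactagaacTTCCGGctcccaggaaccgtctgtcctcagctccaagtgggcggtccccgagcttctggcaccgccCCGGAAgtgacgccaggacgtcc
Srsf2: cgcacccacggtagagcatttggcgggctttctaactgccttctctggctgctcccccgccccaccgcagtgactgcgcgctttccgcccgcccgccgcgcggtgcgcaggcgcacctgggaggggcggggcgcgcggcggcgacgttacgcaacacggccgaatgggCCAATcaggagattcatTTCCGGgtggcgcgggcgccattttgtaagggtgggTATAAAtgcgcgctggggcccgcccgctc
Hnrnpab: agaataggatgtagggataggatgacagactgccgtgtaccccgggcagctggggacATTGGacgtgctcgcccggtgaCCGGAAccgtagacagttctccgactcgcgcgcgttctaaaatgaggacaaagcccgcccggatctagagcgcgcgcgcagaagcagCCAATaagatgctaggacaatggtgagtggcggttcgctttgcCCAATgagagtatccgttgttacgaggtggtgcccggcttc
The Srsf5 window held 2 ETS matches, ending in a match that begins 23 bases before the start. Srsf2 had a TATA match 29 bases before the start, with an ETS match at 65 and an NF-Y match at 82 bases, whereas Hnrnpab had 3 NF-Y matches and an ETS match. Among the 40 windows of the 28 genes, CCGGAA occurred in 37.5% (12.0% of all 32851 windows in the RefSeq table, noncoding genes included), CCAAT in 50.0% (33.8%) and TATAAA in 7.5% (12.4%). CACGTG, the E-box bound by MYC and MAX, occurred in 7.5% (6.02%). The full cAMP response element, TGACGTCA, occurred in 0 of the 40 windows (1.55% of all). These matches of letters describe the windows, and several windows belong to the same gene.

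The families differ widely in abundance (the plot of level per length). On the scale of CPM per kilobase of annotated exon, Hnrnpab stood highest with a mean level over the 3 groups of 209.5, followed by Hnrnpa1 (183), Hnrnpk (114), Hnrnpa2b1 (103) and Hnrnpa0 (99.2). The first of the SR proteins was Srsf2 (89.2), in sixth place. The lowest levels per kilobase were those of Hnrnpr (4.36), which has 22199 bases of annotated exon, Hnrnph3 (5.22), Hnrnpll (7.13) and Srsf11 (7.83). The length counts every exon of every annotated isoform, so a gene with many rarely used exons is placed too low.

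**Figure D1:**
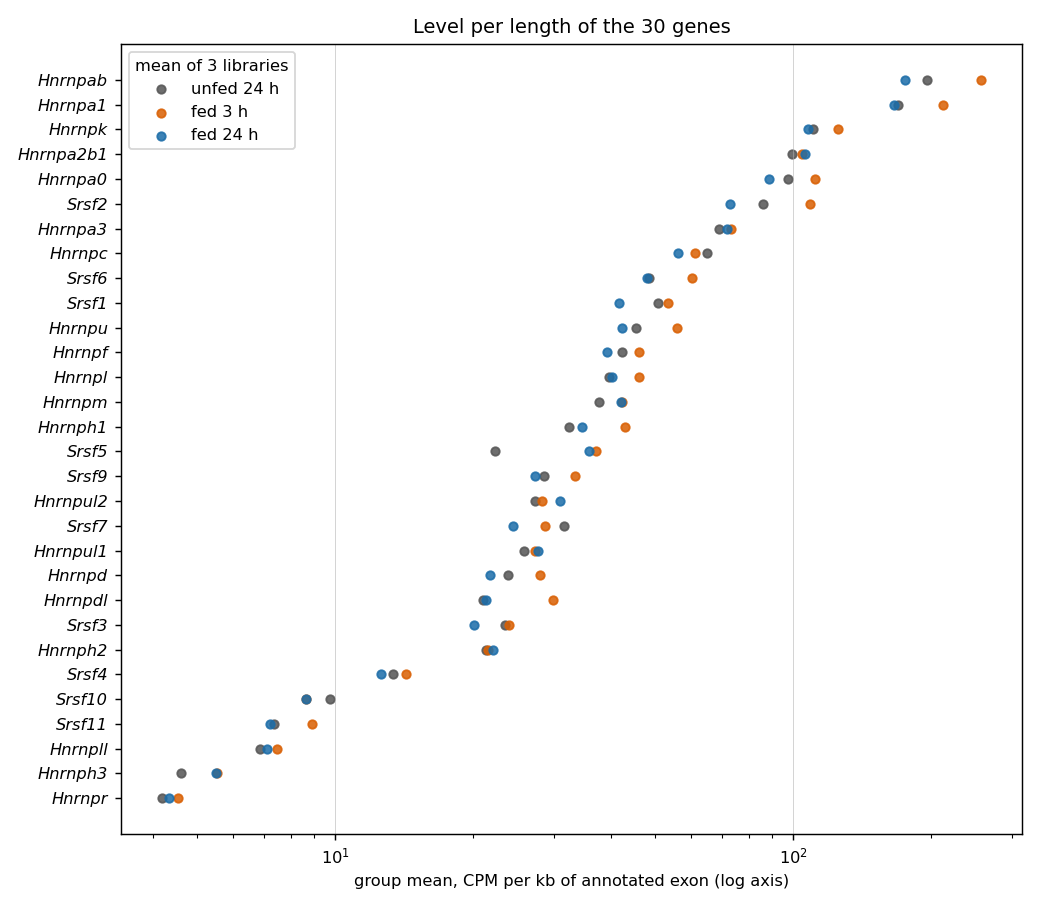
Group means of the 30 genes in CPM per kilobase of annotated exon (log axis), 1 row a gene and 1 point a group (mean of 3 libraries). Hnrnpab and Hnrnpa1 stand at the top in all 3 groups, and the shifts between groups are small beside the distance between genes.

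After 3 h of feeding most of the 30 genes were higher than in unfed cells. Most were also lower at 24 h than at 3 h. Against unfed cells, 19 of 30 genes (63.3%) were higher and 2 lower at 3 h, where 25.1% of all 13568 tested genes were higher and 25.5% lower (edgeR quasi-likelihood test, adjusted p under 0.05 over all tested genes). The median log2 fold change of the 30 genes was 0.17, against -0.009 over all tested genes. At 24 h, 4 genes were higher and 6 lower than in unfed cells, shares of 13.3% and 20.0%, close to the 14.9% and 15.9% of all tested genes. Between fed 24 h and fed 3 h cells, 19 genes were lower and 1 higher, where 30.2% of all tested genes were lower and 30.8% higher, and the median was -0.22 (-0.002 over all tested genes). The libraries of the 2 groups did not overlap for 22 of the 30 genes at 3 h (20 above unfed, 2 below), where this held for 58.2% of all tested genes. The same count was 14 of 30 for fed 24 h against unfed (43.2% of all) and 20 of 30 for fed 24 h against fed 3 h (65.9% of all). The comparisons share libraries (both comparisons with unfed cells share the unfed libraries), so they are not independent. High values in the fed 3 h libraries alone would give both a rise at 3 h and a fall from 3 h to 24 h. The gene counts held within 16 to 20 higher at 3 h and 17 to 19 lower between 24 h and 3 h when each library was left out in turn, but without unfed replicate 1 the genes lower at 24 h numbered 11 instead of 6.

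The summed level of the 30 genes showed the same course. It ran from 6711 to 7459.5 CPM in the unfed group, 7964 to 8299 after 3 h and 6787 to 7089 after 24 h. Every fed 3 h library thus lay above all others, while the fed 24 h libraries fell within the range of the unfed ones. The families differed at 24 h. Summed over the SR proteins alone, the fed 24 h libraries (1256.3 to 1322.8 CPM) lay below all unfed ones (1327 to 1433.5 CPM). For the hnRNPs the fed 24 h sums (5530.9 to 5765.7 CPM) lay within the unfed range (5383.7 to 6026 CPM). The lowest sum over all 30 genes was that of unfed replicate 1, in which 26 of the 30 had their lowest value among the unfed libraries. The share of all tested genes lowest in that library was not counted, so this is not shown to be particular to the 30 genes. In order of group means, 14 genes ran fed 3 h above unfed above fed 24 h, and 9 ran fed 3 h above fed 24 h above unfed. Another 4 ran highest at 24 h and 3 ran unfed above fed 3 h above fed 24 h. These orders hold whether or not a difference was called, and those of all tested genes were not counted. In bulk RNA, fewer cells that express a gene and less of its RNA per cell cannot be told apart.

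**Figure D2:**
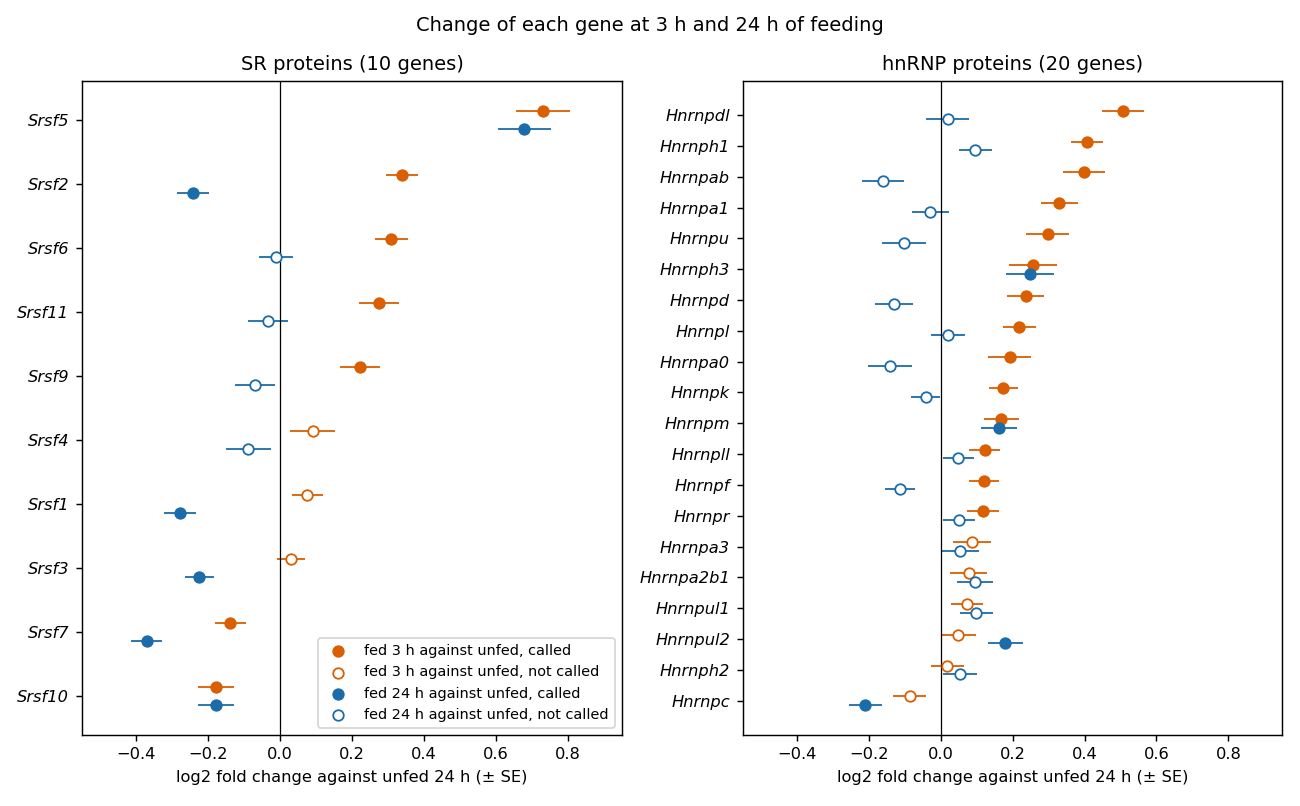
Log2 fold change against unfed cells (horizontal axis, bars ± SE) for the 10 SR proteins and the 20 hnRNPs, at 3 h and at 24 h of feeding. Filled points were called at an adjusted p under 0.05. At 3 h most points lie to the right of zero, with 19 called higher and 2 lower, while at 24 h they spread around zero apart from Srsf5 (0.68).

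Of the 10 SR proteins, 5 were higher (50%) and 2 lower (20%) at 3 h, where 25.1% and 25.5% of all tested genes were. At 24 h, 1 was higher (10%) and 5 lower (50%) than in unfed cells, against 14.9% and 15.9% of all. Between 24 h and 3 h, 8 were lower (80%) and 0 higher, against 30.2% and 30.8% of all. The gene that departed furthest was Srsf5, an SR protein with a pair of RNA recognition motifs that is known to respond to insulin and other signals (chromosome 12, 80945504 to 80950507, plus strand, GRCm38). Its level was 84.0, 94.1 and 89.5 CPM in the unfed libraries, 163, 143 and 138 CPM in the fed 3 h libraries and 141, 128 and 159 CPM in the fed 24 h libraries. All 6 fed libraries lay above all 3 unfed ones, and the fed groups overlapped. The log2 fold change was 0.73 (SE 0.0745, edgeR adjusted p = 1.07e-06) at 3 h and 0.68 (SE 0.0744, edgeR adjusted p = 2.12e-05) at 24 h, and the difference between 24 h and 3 h was -0.05 (SE 0.0733, adjusted p = 0.569).

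Srsf2, also called SC35, marks nuclear speckles and binds exonic enhancers (chromosome 11, 116849901 to 116853094, minus strand). Against unfed cells, all collected at 24 h, it was higher after 3 h and lower after 24 h of feeding. Srsf2 stood at 242, 266 and 256 CPM in unfed, 336, 314 and 317 CPM in fed 3 h and 211, 218 and 216 CPM in fed 24 h libraries. No 2 groups overlapped. The rise at 3 h was 0.34 on the log2 scale (SE 0.0451, edgeR adjusted p = 1.55e-05), the value at 24 h -0.24 (SE 0.0452, edgeR adjusted p = 0.00108) and the difference between 24 h and 3 h -0.58 (SE 0.0452, edgeR adjusted p = 2.59e-08), the largest fall among the 30 genes in that comparison. Exons of Mettl23 and Mfsd11 on the other strand cover 25.3% of its annotated exon bases, and reads of these genes could be told from its own only if strand was kept, which the protocols leave unresolved.

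Srsf7, an SR protein with a zinc knuckle (chromosome 17, 80200080 to 80207307, minus strand), was the member with the largest fall at 24 h. It stood at 107, 115 and 115 CPM in unfed libraries, 101, 102 and 104 CPM at 3 h and 85.7, 85.9 and 89.1 CPM at 24 h. Each group lay apart from the others. The log2 fold change was -0.14 (SE 0.0421, edgeR adjusted p = 0.0126) at 3 h and -0.37 (SE 0.0422, edgeR adjusted p = 3.02e-05) at 24 h. Srsf3, its close relative and the smallest SR protein, did not pass the test at 3 h (0.03, adjusted p = 0.526) and fell at 24 h by 0.22 (SE 0.0390, edgeR adjusted p = 0.000676). Its libraries read 182, 187 and 188 CPM unfed, 191, 189.9 and 188 CPM at 3 h and 154, 163 and 159 CPM at 24 h, so the 24 h libraries lay below all 6 others.

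Srsf1, a founding member of the family and a factor in both constitutive and regulated splicing (chromosome 11, 88047373 to 88053755, plus strand), followed the same course as Srsf3. The values were 276, 296 and 295 CPM in unfed, 309, 297 and 308 CPM in fed 3 h and 232, 246 and 237 CPM in fed 24 h libraries, with all fed 24 h libraries below the rest. At 24 h it changed by -0.28 against unfed cells (SE 0.0437, edgeR adjusted p = 0.000311) and by -0.35 against fed 3 h cells (edgeR adjusted p = 3.95e-06). At 3 h it was not called (0.08, adjusted p = 0.160). Srsf9, its closest paralog, behaved otherwise: it rose at 3 h by 0.22 (SE 0.0547, edgeR adjusted p = 0.00312) and was not called at 24 h against unfed cells (-0.07, adjusted p = 0.361).

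Srsf10, which represses splicing when dephosphorylated (chromosome 4, 135855747 to 135869908, plus strand), was the only SR protein besides Srsf7 called lower at 3 h. It measured 65.5, 70.3 and 69.3 CPM in unfed libraries and 61.1, 60.5 and 59.9 CPM at 3 h, a change of -0.18 (SE 0.05, edgeR adjusted p = 0.00786) with no overlap. At 24 h the libraries stood at 58.4, 58.2 and 64.8 CPM (-0.18, edgeR adjusted p = 0.0142). That call did not hold when unfed replicate 2, unfed replicate 3, fed 24 h replicate 1 or fed 24 h replicate 2 was left out. Over 17 alternatives the value ranged from -0.23 to -0.15. Among the remaining SR proteins, Srsf6 (0.31) and Srsf11 (0.27), the latter a relative found with the 3′ splice site machinery, rose at 3 h, and neither was called at 24 h (-0.01 and -0.03). Both fell between 3 h and 24 h, by 0.32 and 0.31. Srsf4 was called only between 24 h and 3 h (-0.18, edgeR adjusted p = 0.0199), and not without fed 3 h replicate 1 or fed 24 h replicate 1. Exons of Gm12992 on the other strand cover 43.0% of its exon bases.

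**Figure D3:**
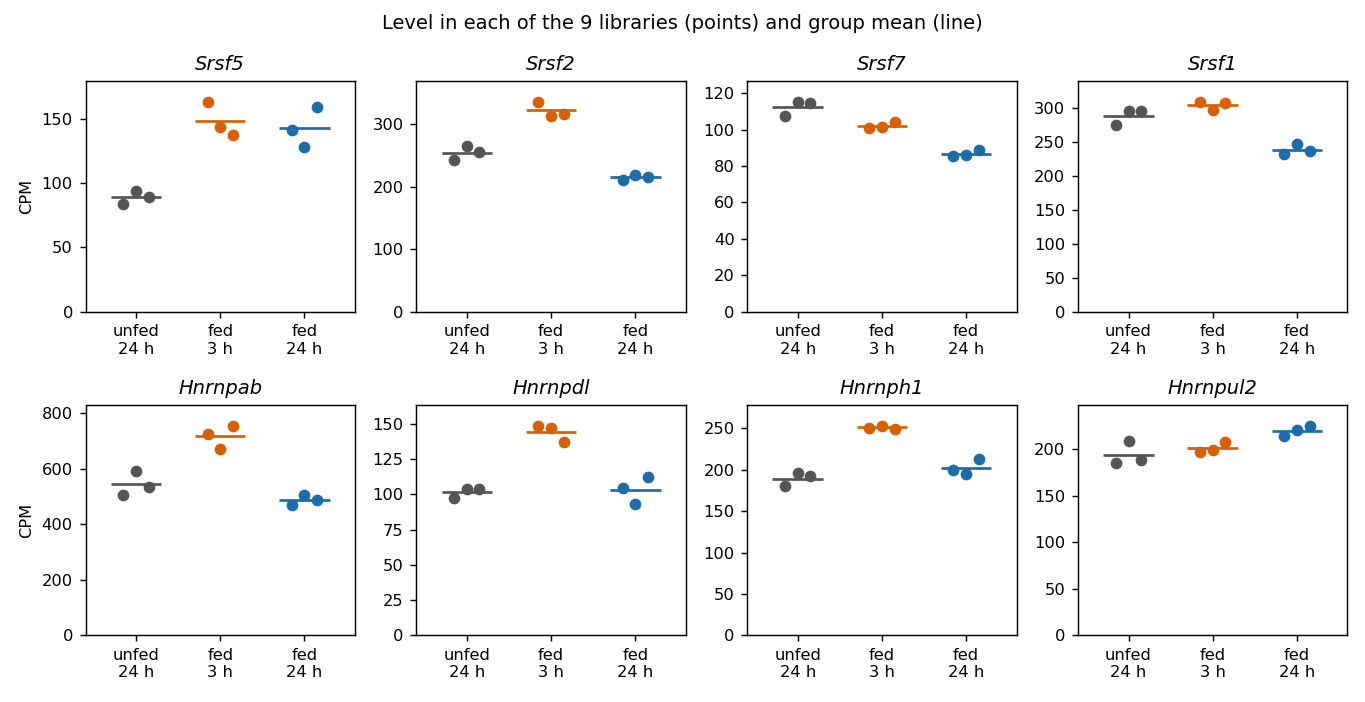
CPM of 8 genes in every library (points) with the group mean (line), each axis starting at 0. Srsf5 is high in both fed groups, Srsf2, Hnrnpab, Hnrnpdl and Hnrnph1 are highest at 3 h, Srsf7 is lowest at 24 h, Srsf1 falls at 24 h and Hnrnpul2 is highest at 24 h.

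Of the 20 hnRNPs, 14 were higher (70%) and 0 lower at 3 h, where 25.1% and 25.5% of all tested genes were. At 24 h, 3 were higher (15%) and 1 lower (5%) than in unfed cells, against 14.9% and 15.9% of all. Between 24 h and 3 h, 11 were lower (55%) and 1 higher (5%), against 30.2% and 30.8% of all. Without unfed replicate 1, the hnRNPs lower at 24 h than in unfed cells numbered 6: Hnrnpc and, in addition, Hnrnpab (-0.21), Hnrnpa0 (-0.18), Hnrnpd (-0.17), Hnrnpu (-0.17) and Hnrnpf (-0.13). Members of the A/B and D groups bind AU-rich and UAG-containing RNA. Hnrnpdl, a paralog of the mRNA decay factor Hnrnpd (chromosome 5, 100033577 to 100039664, minus strand), read 97.4, 104 and 104 CPM in unfed, 149, 147 and 137 CPM in fed 3 h and 104, 92.8 and 112 CPM in fed 24 h libraries. All 3 h libraries lay above the others, and the unfed and 24 h groups overlapped. Its rise at 3 h was 0.51 on the log2 scale (SE 0.0594, edgeR adjusted p = 4.38e-06), the largest of the hnRNPs, and the change from 3 h to 24 h was -0.49 (edgeR adjusted p = 3.37e-06). Hnrnpd itself rose by 0.24 at 3 h and changed by -0.37 from 3 h to 24 h.

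Hnrnpab, an A/B-type protein that binds RNA and single-stranded DNA (chromosome 11, 51600100 to 51606847, minus strand), gave 506, 591 and 535 CPM in unfed, 724, 671 and 755 CPM in fed 3 h and 469, 506 and 486 CPM in fed 24 h libraries. The fed 3 h libraries stood clear of the rest. The change was 0.40 at 3 h (SE 0.0586, edgeR adjusted p = 4.17e-05) and -0.56 between 24 h and 3 h (edgeR adjusted p = 7.03e-07). At 24 h it lay just short of the threshold against unfed cells (-0.16, adjusted p = 0.0504) and was called lower under 8 of 17 alternatives, among them without unfed replicate 1. Exons of Phykpl on the other strand cover 29.1% of its exon bases.

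Hnrnpa1, which shuttles between nucleus and cytoplasm and silences exons (chromosome 15, 103240432 to 103246692, plus strand), was measured at 495, 565 and 541 CPM in unfed, 693, 645 and 675 CPM in fed 3 h and 527, 509.8 and 533 CPM in fed 24 h libraries. Again the fed 3 h libraries were above all others. It rose by 0.33 at 3 h (SE 0.0508, edgeR adjusted p = 6.21e-05) and was not called at 24 h (-0.03, adjusted p = 0.715). Of its A-group paralogs, Hnrnpa2b1 and Hnrnpa3 were not called in any comparison. Hnrnpa2b1, which also reads methylated adenosine in RNA, changed by 0.08 (SE 0.0511) and 0.10 (SE 0.0510) at the same times, and Hnrnpa3 by 0.09 (SE 0.0529) and 0.06 (SE 0.0528). Hnrnpa0, also of the A group, rose by 0.19 at 3 h, a call that ended without unfed replicate 1, unfed replicate 3 or fed 3 h replicate 3, and changed by -0.33 from 3 h to 24 h. Many processed copies of Hnrnpa1 exist in the mouse genome, and the handling of reads with more than 1 match is unknown, so its counts are uncertain.

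The F/H group binds runs of guanines. Hnrnph1 (chromosome 11, 50376990 to 50386528, plus strand) stood at 179.7, 195 and 193 CPM in unfed, 251, 253 and 249 CPM in fed 3 h and 199.6, 195 and 212 CPM in fed 24 h libraries. The fed 3 h libraries lay close together and above the rest, a rise of 0.41 (SE 0.0455, edgeR adjusted p = 2.74e-06). Its near paralog Hnrnph2, on the X chromosome, was not called at 3 h (0.02, SE 0.0465) or at 24 h (0.05, SE 0.0463). Hnrnph3, the least abundant of the group, read 14.6, 15.2 and 13.9 CPM in unfed, 18.1, 18.1 and 16.1 CPM in fed 3 h and 17.0, 16.6 and 18.4 CPM in fed 24 h libraries. It was higher in all 6 fed libraries, by 0.26 at 3 h (edgeR adjusted p = 0.00435) and by 0.25 at 24 h (edgeR adjusted p = 0.0103, 0.0521 without fed 24 h replicate 3). Hnrnpf rose by 0.12 at 3 h, a call lost under 5 of 17 alternatives, and changed by -0.23 from 3 h to 24 h. Its overlaps with exons of 4933440N22Rik and Gm43863 on the other strand add up to 26.5% of its exon bases.

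Hnrnpk, a poly(C)-binding protein with KH domains that acts in transcription as well as splicing (chromosome 13, 58391142 to 58403343, minus strand), read 700.3, 722 and 725 CPM in unfed, 812, 799.8 and 812 CPM in fed 3 h and 686, 707 and 694 CPM in fed 24 h libraries. The fed 3 h libraries lay above all 6 others by a small margin, 0.17 on the log2 scale (SE 0.0396, edgeR adjusted p = 0.00172). Hnrnpu, which binds chromatin and RNA as a scaffold (chromosome 1, 178321108 to 178337797, minus strand), measured 471, 567 and 538 CPM in unfed, 651, 627 and 659 CPM in fed 3 h and 463, 491 and 516 CPM in fed 24 h libraries. It rose by 0.30 at 3 h (SE 0.0607, edgeR adjusted p = 0.000768) and changed by -0.40 from 3 h to 24 h (edgeR adjusted p = 3.49e-05). At 24 h it was called lower than in unfed cells only without unfed replicate 1.

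Hnrnpul2, a relative of Hnrnpu (chromosome 19, 8820010 to 8834143, plus strand), was the sole gene of the 30 called higher at 24 h than at 3 h. Its values were 185, 209 and 188 CPM in unfed, 197, 199 and 208 CPM in fed 3 h and 214, 221 and 225 CPM in fed 24 h libraries, so the fed 24 h libraries lay above all others. The change at 24 h was 0.18 (SE 0.0488, edgeR adjusted p = 0.0115) against unfed and 0.13 (SE 0.0487, edgeR adjusted p = 0.0300) against fed 3 h cells. The first call was lost without unfed replicate 3. The second ended when fed 3 h replicate 1, fed 3 h replicate 2, fed 24 h replicate 2 or fed 24 h replicate 3 was left out. Its paralog Hnrnpul1 was not called in any comparison in this fit (0.07 at 3 h and 0.10 at 24 h against unfed cells), but it was called higher at both times without unfed replicate 2 (0.12 and 0.14).

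Hnrnpm, which binds GU-rich RNA (chromosome 17, 33646233 to 33686860, minus strand), was raised at both times. It stood at 278, 317 and 303 CPM in unfed, 347, 324 and 339 CPM in fed 3 h and 326, 338 and 341 CPM in fed 24 h libraries, so that every fed library lay above every unfed one. The change was 0.17 (edgeR adjusted p = 0.00974) at 3 h and 0.16 (edgeR adjusted p = 0.0214) at 24 h, and the latter was lost without unfed replicate 1 or fed 24 h replicate 3. Exons of March2 on the same strand share 14.7% of its exon bases. Hnrnpc, which coats polyuridine tracts and was the single hnRNP called lower at 24 h with all 9 libraries, changed by -0.21 (SE 0.0461, edgeR adjusted p = 0.00327). Its libraries ran from 272 to 292 CPM unfed and from 236 to 253 CPM at 24 h. Hnrnpl, a CA-repeat binder, rose by 0.22 at 3 h and changed by -0.20 from 3 h to 24 h, whereas Hnrnpll and Hnrnpr rose at 3 h by 0.12 each, calls lost under 3 and 6 of 17 alternatives.

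Counts per gene add up productive and unproductive isoforms. In the GENCODE M21 annotation, 9 of the 10 SR proteins and 10 of the 20 hnRNPs have at least 1 transcript classed as a target of nonsense-mediated decay, where 29.0% of the 11893 tested protein-coding genes have one. Transcripts with a retained intron are annotated for 8 SR proteins and 14 hnRNPs, and for 59.2% of tested protein-coding genes. The 30 genes have a median of 7.5 annotated transcripts and the tested protein-coding genes 5.00. A change of a count here does not tell which isoform changed.

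The genes that act with SR proteins and hnRNPs were read from 7 lists with 138 tested genes in all. Of these, 72 were higher and 15 lower at 3 h (52.2% and 10.9%), 21 higher and 45 lower at 24 h (15.2% and 32.6%), and 14 higher and 94 lower at 24 h than at 3 h (10.1% and 68.1%). The shares over all tested genes are those given above. The genes lower at 24 h numbered 29, 26 and 27 without unfed replicate 2, unfed replicate 3 or fed 24 h replicate 1, and those higher at 24 h numbered 12 without fed 24 h replicate 3. Without fed 3 h replicate 1, 7 instead of 15 were lower at 3 h.

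**Figure D4:**
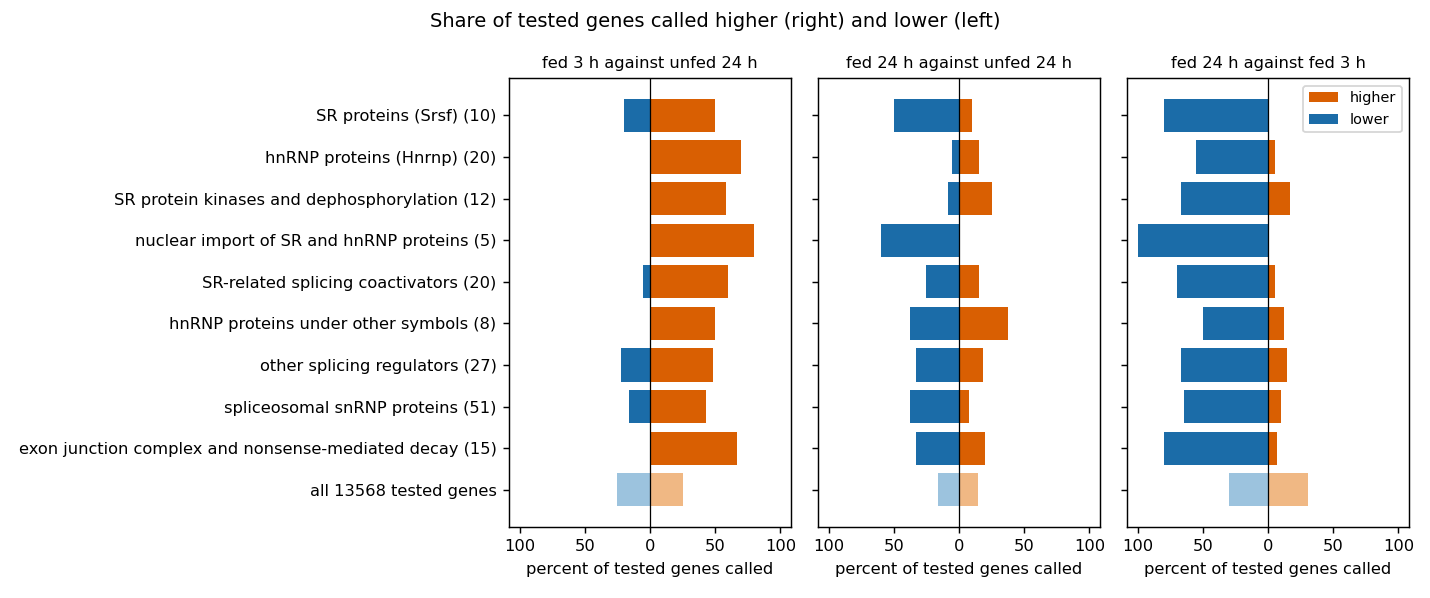
Percent of tested genes called higher (right, orange) and lower (left, blue) in the SR proteins, the hnRNPs and the 7 lists (number of tested genes in brackets), in each comparison. The pale bars give all 13568 tested genes. At 3 h the orange bars of the lists reach 43.1 to 80.0% against 25.1% for all genes, and between 24 h and 3 h the blue bars dominate.

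The list of kinases that phosphorylate the arginine-serine domain, and their counterparts, also holds Pnn and Topors. Of its 12 tested genes, 7 were higher (58.3%) and 0 lower at 3 h, where 25.1% and 25.5% of all tested genes were. At 24 h, 3 were higher (25%) and 1 lower (8.33%) than in unfed cells, against 14.9% and 15.9% of all. Between 24 h and 3 h, 2 were higher (16.7%) and 8 lower (66.7%), against 30.8% and 30.2% of all. Clk1, a CLK kinase that releases SR proteins from speckles, read 15.03 ± 0.826 CPM in the unfed group, 20.9 ± 1.19 after 3 h and 11.7 ± 1.41 after 24 h (SD, n = 3 in each). It rose by 0.47 at 3 h (edgeR adjusted p = 0.000135) and stood below unfed cells at 24 h (-0.37, edgeR adjusted p = 0.00367). Clk4 rose by 0.58 at 3 h and was not called at 24 h against unfed cells (-0.02). Srpk2 (0.18) and Clk3 (0.17) were higher at 24 h than in unfed cells, calls lost under 2 and 4 of 17 alternatives. Clk3 (0.20) and Ppp1r10 (0.13) were higher at 24 h than at 3 h, the latter lost under 8 of 17. Of 5 import factors 4 rose at 3 h (80%), 3 were lower at 24 h against unfed cells (60%) and 5 of 5 fell from 3 h to 24 h. The shares over all tested genes were 25.1%, 15.9% and 30.2%. Tnpo3, named here after its values were seen, was the import factor not called at 3 h (-0.004, edgeR adjusted p = 0.938). At 24 h it was lower than in unfed cells (-0.15, edgeR adjusted p = 0.0116). Tnpo1, transportin 1, which carries hnRNP A1 into the nucleus, stood at 249.6 ± 11.4 CPM in the unfed group, 309 ± 7.71 after 3 h and 206 ± 4.50 after 24 h, with changes of 0.31 and -0.28 against unfed cells. Kpnb1, importin beta 1, changed by 0.21 and -0.34.

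The SR-related coactivators had 12 of 20 higher (60%) and 1 lower (5%) at 3 h, against 25.1% and 25.5% of all tested genes. At 24 h, 3 were higher (15%) and 5 lower (25%) than in unfed cells, against 14.9% and 15.9% of all. Rbm25, a spliceosome-associated protein, rose by 0.68 at 3 h and 0.29 at 24 h, the latter lost without fed 24 h replicate 1 or 3. Sfswap, a regulator of its own splicing, rose by 0.40 and 0.26. Rnps1, a link between splicing and the exon junction complex, fell by 0.55 from 3 h to 24 h. Tra2b was the coactivator called lower at 3 h (-0.14), a call that ended when unfed replicate 2, unfed replicate 3, fed 3 h replicate 1 or fed 3 h replicate 2 was left out.

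Among hnRNPs that carry other symbols, 4 of 8 were higher (50%) and 0 lower at 3 h, against 25.1% and 25.5% of all tested genes. At 24 h, 3 were higher (37.5%) and 3 lower (37.5%) than in unfed cells, against 14.9% and 15.9% of all. Cirbp, the cold-inducible RNA-binding protein, rose at both times. It stood at 24.3 ± 0.549 CPM in the unfed group, 35.3 ± 2.38 after 3 h and 36.6 ± 2.84 after 24 h, with changes of 0.54 (edgeR adjusted p = 5.29e-06) and 0.59 (edgeR adjusted p = 2.01e-05). Syncrip, also called hnRNP Q, rose by 0.24 at 3 h and was lower at 24 h (-0.25). Of 27 other splicing regulators, 13 rose (48.1%) and 6 fell (22.2%) at 3 h, where 25.1% of all tested genes were higher and 25.5% lower. Khdrbs3, of the STAR family, rose by 0.48 and Mbnl1, a muscleblind protein, by 0.38, whereas Rbm10, a regulator of exon skipping, changed by -0.34.

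Spliceosomal snRNP proteins and other spliceosomal factors, RNA helicases among them, had 22 of 51 higher (43.1%) and 8 lower (15.7%) at 3 h. The shares over all tested genes were 25.1% and 25.5%. At 24 h, 4 were higher (7.84%) and 19 lower (37.3%) than in unfed cells, against 14.9% and 15.9% of all. Snrpa1, the U2 protein A′, rose by 0.61 at 3 h and fell by 0.79 from 3 h to 24 h. Snrpb2, its partner U2 protein B″, moved the opposite way, by -0.50 at 3 h and by 0.69 from 3 h to 24 h. Ddx5, an RNA helicase, rose at both times (0.48 and 0.31). Genes of the exon junction complex and nonsense-mediated decay had 10 of 15 higher (66.7%) and 0 lower at 3 h. From 3 h to 24 h, 12 of 15 fell (80%), against 30.2% of all tested genes. Smg5, which takes part in dephosphorylating the decay factor UPF1, rose by 0.44 at 3 h and was lower than in unfed cells at 24 h (-0.27, edgeR adjusted p = 0.00271). Upf3b, a decay factor bound to the junction complex, rose at both times (0.30 and 0.41).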

How the data were processed

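RNA from 9 libraries of ST2 cells (3 groups of 3) was sequenced by the authors, who deposited whole-number read counts per gene. STAR 2.7.0f, featureCounts of Subread 1.6.4 and MultiQC 1.7 are named per the submitters' processing notes, with the builds GRCm38.p6 and GRCh38.p13. For the annotation release, the strand setting and the handling of reads with several matches, nothing is stated in the sources used here. The sample protocol names a stranded mRNA kit and the series text a SMART-Seq v4 and Nextera XT preparation, so whether strand was kept is unresolved.

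Counts were normalised by TMM and tested with edgeR 4.0.16 (R 4.3.3) by the quasi-likelihood test, with all 9 libraries in 1 fit and 3 comparisons. Its filter on low counts kept 13568 genes, with at least 99.96% of each library's counts. P-values were adjusted by Benjamini-Hochberg over these genes, with calls made at 0.05. SE is the absolute log2 fold change divided by the square root of F. CPM used TMM-scaled library sizes, and means are given ± SD. Total counts of 44442664 to 55971275 gave each of the 30 genes at least 626 counts in every library. The common biological coefficient of variation was 0.0536. Replicates differed by more than sampling noise (chi-square per degree of freedom 5.46 to 16.1), so none was taken as a library deposited more than once. Exon lengths, overlaps and transcript classes came from GENCODE M21 (30 of 30 genes matched), and promoters from RefSeq. The fit was tested on simulated data.

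Values per library are given for the 4 genes with the largest called change per direction and comparison, the 3 with the highest level per kilobase and those called in opposite directions against unfed cells. From each other list up to 2 genes per direction and comparison were named, at 5 CPM or more. The genes, lists and motifs were chosen with earlier results of these data known. Alternatives were DESeq2 1.42.0 (size factors, Wald test), limma 3.58.1 (voom), no filter, a filter at 5 CPM in 3 libraries, a replicate block, a fit of the 6 libraries compared, leaving out genes linked to ribosomal RNA and mitochondrial genes, and leaving out each library.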

Additional observations from a re-analysis of the deposited data

Results flagged for a closer look

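Srsf2 was the single gene of the 30 that was called in opposite directions against the same unfed libraries, higher after 3 h and lower after 24 h of feeding. The difference between its log2 fold changes at the 2 times, which equals the comparison of fed 24 h with fed 3 h cells, was -0.58 (SE 0.0452, edgeR adjusted p = 2.59e-08). All 3 fed 24 h libraries lay below all 3 fed 3 h libraries. Time in culture differs between the 3 h cells and the unfed cells as well, and its part was not tested.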

How the results depend on the processing

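Under the 8 alternatives that keep all 9 libraries or the 6 compared, no count of called genes moved by more than 1.5 times. Among the 30 genes these gave 4 to 5 higher and 6 to 8 lower at 24 h, 16 to 19 higher and 2 lower at 3 h, and 1 higher and 18 to 19 lower between 24 h and 3 h. Leaving out 1 library at a time gave 2 to 5 higher and 5 to 11 lower at 24 h, 16 to 20 higher at 3 h, and 0 to 1 higher between 24 h and 3 h. For the 138 genes of the lists it gave 12 to 21 higher and 26 to 49 lower at 24 h and 7 to 16 lower at 3 h. These fits also have fewer libraries, and the cause of the shifts was not tested.

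Values near 0 changed sign. Srsf10 between 24 h and 3 h (-0.0002) became 0.0044 with no filter, 0.0261 with the stricter filter, 0.0018 when fitted to 6 libraries, and 0 when leaving out the ribosomal and mitochondrial genes. The stricter filter also gave Srsf6 0.0045 at 24 h, and Hnrnph3 0.0173 and Hnrnpm 0.0198 between 24 h and 3 h. With 1 library left out, the ranges at 24 h against unfed cells were -0.0775 to 0.0164 for Hnrnpa1, -0.0406 to 0.0895 for Hnrnpdl, -0.0286 to 0.0605 for Hnrnpl, -0.0924 to 0.0339 for Srsf11 and -0.0413 to 0.0116 for Srsf6. At 3 h the range was -0.0049 to 0.0490 for Hnrnph2. Between 24 h and 3 h the ranges were -0.0075 to 0.0490 for Hnrnpa2b1, -0.0639 to 0.0195 for Hnrnpa3, -0.0654 to 0.0233 for Hnrnph3, -0.0366 to 0.0186 for Hnrnpm, -0.0485 to 0.0307 for Srsf10 and -0.1295 to 0.0227 for Srsf5. None of these values was called.

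Libraries with the same replicate number did not deviate together (correlations of -0.163 to 0.058 across genes, with 1 of 9 libraries closest to its own number). This cannot show whether libraries of the same number were prepared together, which the labels do not state. With the replicate block, Hnrnpr at 3 h was no longer called (0.12, edgeR adjusted p = 0.0509), and 20 of the 30 genes were called at 3 h instead of 21. Gene counts do not resolve isoforms, and genes that overlap or have processed copies remain uncertain.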
